A study of Homo sapiens with 4 samples.

Results

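Expression in HepG2 cells after 12 h of APRIL was compared with that at 0 h, using 1 array for each time. These are 2 of the 4 arrays of the series. The value of a probe set at 12 h minus its value at 0 h is a log2 ratio, in which 1 means 2-fold higher and -1 means 2-fold lower at 12 h. Where several probe sets with exactly 1 gene symbol read a gene, their median was taken, which gave a ratio for 19775 genes, 10523 of them read by 2 or more probe sets.

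HepG2 is a cell line from a human liver cancer that makes many liver proteins. Total RNA was hybridised to the U133 Plus 2.0 array of Affymetrix. All 4 arrays come from cells deprived of serum, for 24 h in the series' design text and overnight in the labels' protocols. The 0 h array is of untreated cells, and the 2, 6 and 12 h arrays are of cells given 200 ng/ml APRIL for those times. There was 1 array a time and no untreated array at 12 h, so no replicate error and no test can be given, every difference is between 2 arrays, and APRIL and time without serum cannot be told apart. The 2 h, 6 h and 12 h ratios share the 0 h array and are given side by side only.

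APRIL, also named TNFSF13, is a ligand of the tumour necrosis factor family that cells release. It binds the receptors BCMA and TACI and heparan sulphate chains on the cell surface, and is best known for keeping plasma cells alive. Receptors of this family signal through TRAF adaptors to NF-kB and to the kinases JNK, p38 and ERK, whose first targets in many cells are genes for short-lived transcription factors of the AP-1 and EGR families. Cells without serum lose growth factor signals and tend to stop before DNA replication, and a liver cell also adjusts its lipid, sugar and amino acid metabolism to the supply of nutrients.

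At 12 h, 187 genes (0.946%) were 2-fold or more higher and 195 genes (0.986%) were 2-fold or more lower. Centred on spike-in RNAs, described below, the counts were 694 genes higher and 76 lower, which is a change of scale and no measure of total RNA. The counts at 1.5-fold were 881 genes higher (4.46%) and 731 lower (3.7%). The ratio was above 0 in 51.7% of all genes and below 0 in 47.7%, with a median of 0.01. These shares, all on the scale of RMA, are the background against which each group of genes below is read. Past 4-fold there were 11 genes in each direction. The SD over all genes was 0.347. The robust SD over all genes was 0.238, against 0.163 for the 2 h over 0 h ratios.

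**Figure D1:**
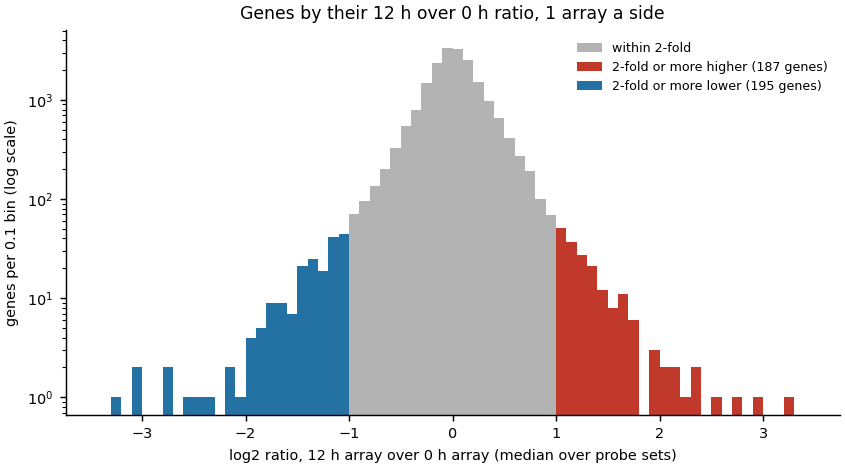
Number of genes (log scale) in each 0.1-wide bin of the log2 ratio of the 12 h array over the 0 h array, with 1 array a side. Red bars are the 187 genes 2-fold or more higher, blue bars the 195 genes 2-fold or more lower, and grey bars the genes between, and both tails reach past a log2 ratio of 3 or -3.

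The genes were described by 73 lists of known function, with 1310 distinct genes read here, and by 37 families of shared symbol. The lists were written with earlier results of these data known and are described by counts and medians, with no test. A list median was treated as shifted when it lay 0.25 or more from 0. That held for 7 lists above 0 and 9 below. The higher lists were transcription factors and feedback genes of the early response, NF-kB subunits, the integrated stress response and tRNA synthetases. The lower lists were 4 of DNA replication and its nucleotides and repair, mitotic genes, cholesterol synthesis, glycolysis, hypoxia targets outside glycolysis and metallothioneins. Spike-in RNAs, here the BioB, BioC, BioD and Cre controls of the array, were 0.353 lower at 12 h than at 0 h in median, in 18 of 18 probe sets. The step at which they were added was not examined. They therefore cannot show whether the amount of RNA in the cells changed, and serve here as another scale only. Centring on these controls raises each ratio at 12 h by 0.353. The mitotic and hypoxia lists then turn from -0.30 and -0.31 to 0.054 and 0.043. With the same centring the lists of replication origins, the fork and nucleotides were at -0.23, -0.30 and -0.30. Directions given here otherwise rest on the scaling of RMA, which makes the distributions of the arrays equal.

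**Figure D2:**
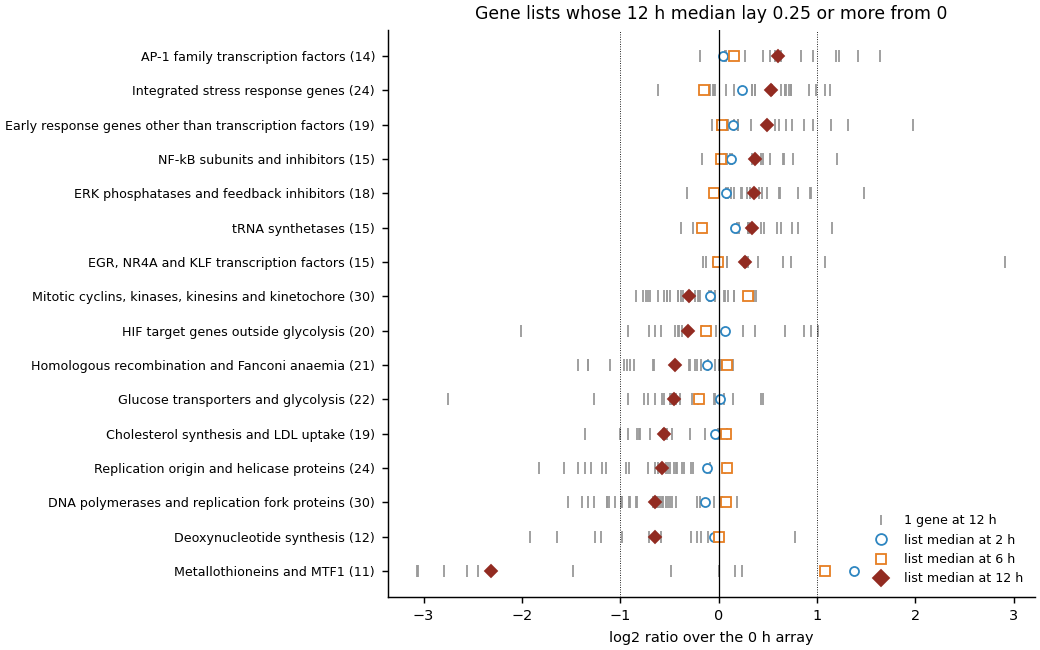
Log2 ratio over the 0 h array for the 16 lists whose 12 h median lay 0.25 or more from 0, with the number of genes read in brackets; grey ticks are single genes at 12 h, and open circles, open squares and filled diamonds are list medians at 2, 6 and 12 h. The 12 h medians run from 0.60 for AP-1 factors to -2.31 for metallothioneins, and those of the mitotic and hypoxia lists change sign relative to the spike-in RNAs, as that of the metallothioneins does without multi-match probe sets, which can match several transcripts.

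Genes of DNA replication were lower at 12 h. Replication starts where the origin recognition complex, CDC6 and the MCM ring are loaded on DNA, and the ring is switched on by CDC45, GINS and MCM10. Of the 24 origin and helicase genes, 23 were below 0, 7 (29.2%) were 2-fold or more lower and 0 were 2-fold higher. Their median was -0.12 at 2 h, 0.081 at 6 h and -0.58 at 12 h. MCM10, which binds the activated helicase, was at -0.30 at 2 h, 0.0066 at 6 h and -1.83 at 12 h. MCM6, a subunit of the ring, was at -0.12 at 2 h, 0.0023 at 6 h and -1.57 at 12 h. In both genes the 12 h array stood alone below the other 3.

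The same held for most of the ring and its activators. GINS1 was at -0.27 at 2 h, 0.32 at 6 h and -1.43 at 12 h, MCM2 at -0.21 at 2 h, 0.16 at 6 h and -1.36 at 12 h, and MCM4 at -0.12 at 2 h, 0.0083 at 6 h and -1.30 at 12 h. CDC45 was at -0.005 at 2 h, -0.14 at 6 h and -1.19 at 12 h, and the loading factor CDC6 at -0.027 at 2 h, -0.14 at 6 h and -1.15 at 12 h. A stricter reference than 0 h is the highest of the other 3 arrays for a higher gene or list and the lowest of them for a lower one, called the strictest array here. Against it these 7 genes lay between -0.97 and -1.53, and the list median was -0.38. The other ring subunits were nearer 0, with MCM5 at -0.95, MCM7 at -0.62 and MCM3 at -0.43. ORC1, the subunit of the origin recognition complex that is made anew in each cycle, was at -0.91, while ORC2 was at 0.069, the 1 member of the list above 0.

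Promoter sequences were taken from the RefSeq table of GRCh38.p14, which covers 250 bases before to 50 bases after the start of each gene. They are shown for MCM6, CDC6 and PCNA because these members of the replication lists were past 2-fold lower and their promoters hold an E2F site, in capitals, the element through which E2F factors turn on replication genes. The first lies at chr2:135876394-135876693 on the minus strand, the second at chr17:40287629-40287928 on the plus strand and the third at chr20:5126573-5126872 on the minus strand.
MCM6: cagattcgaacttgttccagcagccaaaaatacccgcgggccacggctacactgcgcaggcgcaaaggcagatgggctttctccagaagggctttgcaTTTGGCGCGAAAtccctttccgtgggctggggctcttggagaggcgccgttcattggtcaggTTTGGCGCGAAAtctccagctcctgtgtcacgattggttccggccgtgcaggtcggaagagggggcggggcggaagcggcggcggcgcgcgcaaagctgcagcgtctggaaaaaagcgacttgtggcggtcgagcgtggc
CDC6: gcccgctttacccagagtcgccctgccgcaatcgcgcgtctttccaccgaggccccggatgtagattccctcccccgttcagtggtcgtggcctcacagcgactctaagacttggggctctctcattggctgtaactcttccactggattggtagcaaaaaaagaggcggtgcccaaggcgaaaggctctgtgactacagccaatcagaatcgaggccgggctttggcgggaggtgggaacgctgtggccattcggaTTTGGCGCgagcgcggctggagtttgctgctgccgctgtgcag
PCNA: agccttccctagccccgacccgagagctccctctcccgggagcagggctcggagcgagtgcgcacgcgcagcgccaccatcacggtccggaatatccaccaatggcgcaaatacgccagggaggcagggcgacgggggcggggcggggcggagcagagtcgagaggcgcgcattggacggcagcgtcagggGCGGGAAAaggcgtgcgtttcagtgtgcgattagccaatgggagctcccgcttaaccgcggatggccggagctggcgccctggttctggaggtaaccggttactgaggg

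The letters searched on both strands for the E2F site were TTTCCCGC, TTTGGCGC, TTTCGCGC and TTTGCCGC. They occurred in 11 of 21 promoters (52.4%) of the origin and helicase list, in 8 of 26 (30.8%) of the replication fork list and in 2 of 12 (16.7%) of the nucleotide list, against 3.33% of all 27305 promoters. Counted from the gene's start as 0, the 4 matches of MCM6 begin at -152, -148, -90 and -86 and overlap in 2 pairs, the match of CDC6 begins at 7 and that of PCNA at -59. A match is a description of the letters and not a measured site.

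At the fork, the list of polymerases, clamp, clamp loader and ligase had 30 genes, of which 28 were below 0, 8 (26.7%) 2-fold or more lower and 0 2-fold higher. The median was -0.14 at 2 h, 0.076 at 6 h and -0.65 at 12 h. POLE2, a subunit of the leading-strand polymerase, was at -0.29 at 2 h, 0.21 at 6 h and -1.53 at 12 h. RPA3, of the single-strand binding complex, was at -1.39, and PRIM1, the primase, at -0.19 at 2 h, -0.36 at 6 h and -1.33 at 12 h. PCNA, the sliding clamp, was at -0.20 at 2 h, -0.028 at 6 h and -1.27 at 12 h. At 6 h PRIM1 was the lowest of these 4, with RPA3 and POLE2 above 0. The ligase LIG1 at -1.14, WDHD1 at -1.14, the clamp loader subunit RFC4 at -1.11 and RNASEH2A, which removes primers, at -1.05 were the others past 2-fold, and FEN1 was next at -0.99.

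Enzymes that make the DNA building blocks were lower as well. Of 12 genes read, 11 were below 0 and 4 (33.3%) 2-fold or more lower, with a median of -0.65 at 12 h after -0.051 at 2 h and 0.008 at 6 h. RRM2, the ribonucleotide reductase subunit that limits deoxynucleotide supply, was at -0.15 at 2 h, -0.029 at 6 h and -1.91 at 12 h, with an SD of 0.14 over 2 probe sets. Its partner RRM1 was at -0.093 at 2 h, -0.16 at 6 h and -1.26 at 12 h. Thymidine kinase TK1 was at -0.20 at 2 h, -0.078 at 6 h and -1.64 at 12 h and DUT, which removes dUTP, at -1.19. CTPS1, which makes CTP, was the exception at 0.31 at 2 h, 0.41 at 6 h and 0.78 at 12 h, highest at 12 h. Left without multi-match probe sets, the list median was -0.34.

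Recombination genes were also lower at 12 h. Of 21 genes of homologous recombination and the Fanconi pathway, 18 were below 0 and 4 (19%) 2-fold or more lower, with a median of -0.45 at 12 h, -0.28 against the strictest array, -0.78 against the mean of the other 3 arrays and -0.093 relative to the spike-in RNAs. The helicase BRIP1 was at -1.33, the nuclease EXO1 at -1.33 and UBE2T, the ubiquitin-conjugating enzyme of the Fanconi pathway, at -1.11. BARD1 and BRCA1, which act as a pair, were at -0.97 and -0.93. In the list of mismatch and excision repair 0 of 19 genes passed 2-fold either way, and 9 were above 0, with UNG and NEIL3, which remove damaged bases, at -0.93 and -0.91.

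Genes that copy chromatin along with DNA were mixed. Of 19, 3 were 2-fold or more lower and 13 were below 0, with a median of -0.12 that becomes 0.24 relative to the spike-in RNAs. UHRF1, which finds hemimethylated DNA behind the fork, was at -0.37 at 2 h, -0.12 at 6 h and -2.11 at 12 h. HELLS, a chromatin remodeller, was at -1.39 and DNMT3B, which sets new methylation, at -1.15, while DNMT1, which keeps methylation, was at -0.39. Among 56 histone genes 4 (7.14%) were 2-fold or more lower: H1-4 at -0.75 at 2 h, -1.76 at 6 h and -1.83 at 12 h, H3C2 at -1.28 at 2 h, -1.59 at 6 h and -1.80 at 12 h, H4C11 at -0.094 at 2 h, -0.17 at 6 h and -1.43 at 12 h and H1-2 at -1.07. H3C2 was past 2-fold lower from 2 h and H1-4 from 6 h, whereas H4C11 was so at 12 h only. Histone genes are alike in sequence, so probe sets may not tell them apart.

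The controllers of the cycle had smaller shifts in list median than its replication machinery. The median at 12 h was -0.042 for E2F and RB family genes and 0.044 for G1 genes. Among 16 E2F and RB family genes only the repressor E2F8 passed 2-fold, at -0.35 at 2 h, 0.10 at 6 h and -1.79 at 12 h, followed by E2F7 at -0.91, with an SD of 1.23 over 2 probe sets. E2F1 was at -0.038 and RB1 at 0.17. No G1 cyclin, kinase or inhibitor passed 2-fold among 18, with CCNE2, the S-phase cyclin, at -0.98, SKP2, which marks an inhibitor for breakdown, at -0.82, CCND1 at -0.43 and the inhibitor CDKN1A at 0.28. Over all genes 0.946% were 2-fold or more higher and 0.986% lower. A count of 0 is near that share, here and for the mitotic genes that follow. E2F8, E2F7, CCNE2 and SKP2 were lower, as replication genes were. Of 30 mitotic genes 23 were below 0 and 0 passed 2-fold, with a median at -0.088 at 2 h, 0.30 at 6 h and -0.30 at 12 h (0.054 relative to the spike-in RNAs). HMMR, a spindle protein, was at -0.84, cyclin CCNA2 at -0.77 and the kinase CDK1 at -0.13 at 2 h, 0.48 at 6 h and -0.62 at 12 h. CHR letters, TTTGAA or TTCGAA, the element of late cell cycle genes, occurred in 17 of 25 promoters (68%) of the mitotic list, against 16.6% of all promoters.

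A further set of genes outside the lists was grouped by known function after its values were seen, so its direction is a description. In it were DTL, an adaptor that marks licensing factors for breakdown in S phase, at -0.46 at 2 h, 0.063 at 6 h and -1.73 at 12 h, the checkpoint kinase CHEK1 at -1.31, CDCA7, a partner of HELLS, at -0.17 at 2 h, -0.93 at 6 h and -1.68 at 12 h, and PCLAF, a PCNA-binding protein, at -1.06. Kinetochore and centromere genes included SPC25 at -0.19 at 2 h, 0.33 at 6 h and -1.77 at 12 h, ZWINT at -1.64, CENPU at -1.32, CENPK at -1.21 and DSN1 at -1.18. CDCA7 and CENPU were below 0 already at 6 h, in contrast to SPC25, CENPK and ZWINT. In the centromere protein family as a whole, 17 of 20 genes were below 0, with a median of -0.28 that becomes 0.07 relative to the spike-in RNAs.

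**Figure D3:**
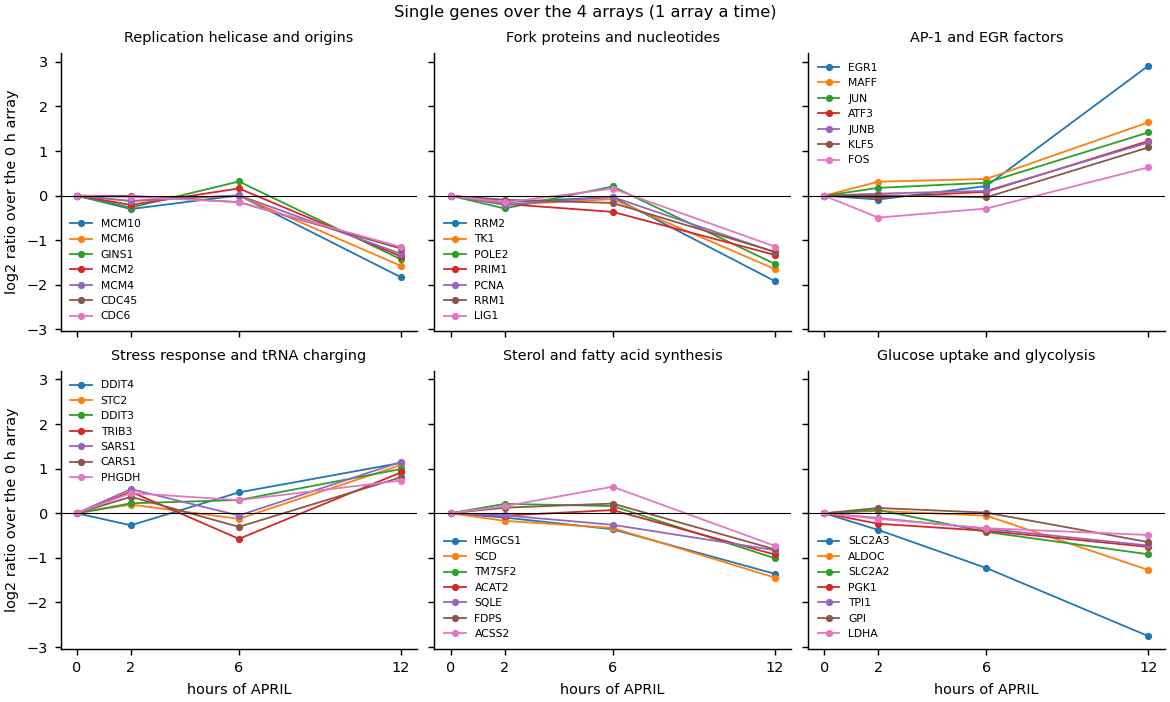
Log2 ratio over the 0 h array (vertical) at 0, 2, 6 and 12 h of APRIL (horizontal) for 42 single genes in 6 groups, with 1 array a time and lines joining the values of a gene. Replication genes such as MCM6 (-1.57) and RRM2 (-1.91) leave the range near 0 at 12 h, as EGR1 (2.91) does upward, whereas SLC2A3 is at -1.23 at 6 h already.

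Transcription factors of the early response were higher at 12 h. AP-1 is a pair of FOS, JUN, ATF or MAF proteins. Of 14 AP-1 genes 13 were above 0, 4 (28.6%) were 2-fold or more higher and 0 lower, with a median at 0.046 at 2 h, 0.16 at 6 h and 0.60 at 12 h. MAFF, a small MAF protein, was at 0.31 at 2 h, 0.38 at 6 h and 1.64 at 12 h, with an SD of 0.064 over 2 probe sets. JUN was at 0.17 at 2 h, 0.29 at 6 h and 1.42 at 12 h and JUNB at 0.045 at 2 h, 0.11 at 6 h and 1.19 at 12 h. ATF3, which is also induced by stress, was at -0.037 at 2 h, 0.087 at 6 h and 1.23 at 12 h, but its 3 probe sets had an SD of 0.95 and were not all of 1 sign. MAFG was at 0.96 and FOSL2 at 0.83. FOS itself was below 0 first, at -0.49 at 2 h, -0.29 at 6 h and 0.63 at 12 h.

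EGR1, the zinc finger factor that growth factors induce through SRF, was the highest gene read by several probe sets, at -0.086 at 2 h, 0.22 at 6 h and 2.91 at 12 h. Its 3 probe sets lay between 1.97 and 3.05, and even against the strictest array it was at 2.23. Of the list of 15 EGR, NR4A and KLF factors 12 were above 0 and 2 (13.3%) 2-fold or more higher, with a median of 0.27 that was 0.084 against the strictest array. KLF5 was at 0.011 at 2 h, -0.036 at 6 h and 1.08 at 12 h, KLF11 at 0.73 and KLF6 at 0.65. The orphan receptor NR4A1 was at 0.30, with probe sets of both signs.

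Promoters are shown for 3 of these factors past 2-fold whose promoters hold an element known from early response genes. EGR1, at chr5:138465229-138465528 on the plus strand, has capitals at its 2 CArG boxes, the element bound by SRF. MAFF, at chr22:38201744-38202043 on the plus strand, has them at a CRE, TGACGTCA, the element of CREB and ATF factors. ATF3, at chr1:212565157-212565456 on the plus strand, has them at TGATGNAA, the composite element of ATF4 and CEBP factors.
EGR1: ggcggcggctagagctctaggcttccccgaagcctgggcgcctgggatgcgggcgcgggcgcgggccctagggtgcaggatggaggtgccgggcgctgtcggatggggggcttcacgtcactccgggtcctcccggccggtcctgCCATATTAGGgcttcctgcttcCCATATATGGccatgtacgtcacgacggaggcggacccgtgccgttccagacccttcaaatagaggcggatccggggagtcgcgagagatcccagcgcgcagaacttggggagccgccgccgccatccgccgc
MAFF: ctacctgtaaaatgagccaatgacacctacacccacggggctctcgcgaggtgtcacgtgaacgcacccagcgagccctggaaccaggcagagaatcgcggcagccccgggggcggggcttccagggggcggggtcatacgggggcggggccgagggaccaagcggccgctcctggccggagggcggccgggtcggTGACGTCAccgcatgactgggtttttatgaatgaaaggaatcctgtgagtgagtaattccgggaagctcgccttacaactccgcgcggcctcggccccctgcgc
ATF3: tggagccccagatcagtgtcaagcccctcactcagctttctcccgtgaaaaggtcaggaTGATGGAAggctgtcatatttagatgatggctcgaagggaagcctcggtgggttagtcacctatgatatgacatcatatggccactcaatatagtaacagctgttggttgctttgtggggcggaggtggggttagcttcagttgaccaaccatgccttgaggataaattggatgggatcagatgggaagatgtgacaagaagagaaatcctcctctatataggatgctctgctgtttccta

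The CArG boxes of EGR1 begin at -105 and -83 counted from the gene's start, the CRE of MAFF at -54 and the composite element of ATF3 at -191. A CArG box occurred in 2 of 12 promoters (16.7%) of the EGR, NR4A and KLF list, those of EGR1 and SRF, against 1.29% of all promoters. The CRE occurred in 2 of 11 AP-1 promoters (18.2%), against 1.98%. The AP-1 site TGACTCA was in 7 of 146 promoters (4.79%) of genes past 2-fold higher. In genes past 2-fold lower it was in 5 of 157 (3.18%). It was in 4.92% of all promoters and in 3.74% of those of genes read here. Examples are CXCL8, IL11, NAGS and SLC6A14 among the higher genes and ARRDC4, SLC30A10 and MT2A among the lower. The EGR sites GCGGGGGCG and GCGTGGGCG were in 14 (9.59%) of the higher and 6 (3.82%) of the lower, against 5.7% of all promoters and 7.93% of those of genes read here. Examples are FILIP1L, CLIP2 and CHIC2 among the higher genes and UHRF1, CHST9 and LIG1 among the lower.

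Other early response genes and the brakes on ERK signalling were also higher at 12 h. Of 19 early response genes that are no transcription factors 16 were above 0 and 3 (15.8%) 2-fold or more higher. Their median was 0.49, which was 0.27 against the strictest array and 0.21 without multi-match probe sets. IER3, a survival gene, was at 0.16 at 2 h, 0.41 at 6 h and 1.98 at 12 h, PPP1R15A, which reverses the translation block of stress, at 0.14 at 2 h, 0.16 at 6 h and 1.31 at 12 h, and IER5 at 0.092 at 2 h, 0.47 at 6 h and 1.14 at 12 h. IER3 rests on 1 multi-match probe set. PIM3, a kinase, was at 0.96, and ZFP36, which destroys cytokine messages, at 0.31 at 2 h, 0.59 at 6 h and 0.87 at 12 h.

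Of 18 ERK phosphatases and feedback inhibitors 17 were above 0 and 1 (5.56%) 2-fold or more higher, with a median of 0.36 that was 0.19 against the strictest array. DUSP10, a phosphatase of JNK and p38, was at -0.0022 at 2 h, 0.94 at 6 h and 1.47 at 12 h and so was high from 6 h. ERRFI1, an inhibitor of the EGF receptor, was at 0.12 at 2 h, -0.34 at 6 h and 0.94 at 12 h, DUSP5, a nuclear ERK phosphatase, at -0.17 at 2 h, -0.075 at 6 h and 0.93 at 12 h, and SPRY4 at 0.80. DUSP6, the cytoplasmic ERK phosphatase, was at 0.16.

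Among growth factors and their receptors single genes passed 2-fold, all upward. HBEGF, a ligand of the EGF receptor, was at 0.075 at 2 h, 0.44 at 6 h and 1.28 at 12 h, with an SD of 1.20 over 4 probe sets, and was the 1 of 9 EGF family genes past 2-fold. The receptor EPHA2 was at 0.21 at 2 h, 0.95 at 6 h and 1.66 at 12 h and its ligand EFNA1 at 0.21 at 2 h, 0.32 at 6 h and 1.04 at 12 h, the 2 of 18 ephrin and Eph genes past 2-fold. Both rest on 1 probe set, and EPHA2 was higher at each later array. VEGFA, the vascular growth factor, was at 0.12 at 2 h, 0.021 at 6 h and 1.01 at 12 h, 1 of 23 genes of its list. CCN1, a matrix protein induced through SRF and YAP, was at 0.037 at 2 h, -0.32 at 6 h and 2.00 at 12 h and AMOTL2, a brake on YAP, at -0.44 at 2 h, 0.076 at 6 h and 1.20 at 12 h, while CCN2, which is usually induced with CCN1, was at 0.022. IGFBP3, which binds insulin-like growth factors, was at 0.49 at 2 h, -0.50 at 6 h and 1.65 at 12 h, below the 0 h array at 6 h and above it at 12 h.

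The APRIL system itself stayed within 2-fold. Of 14 genes for APRIL, BAFF, their receptors and TRAF adaptors 0 passed 2-fold, 10 were above 0 and the median was 0.18. A count of 0 is near the share of all genes, of which 0.946% were 2-fold or more higher and 0.986% lower. TNFSF13, the gene of APRIL, was at 0.24 at 2 h, 0.25 at 6 h and 0.23 at 12 h and TNFRSF17, the receptor BCMA, at 0.27 at 2 h, 0.19 at 6 h and 0.12 at 12 h. TRAF4 was at 0.73. The centred values hold no level, so whether these receptors are expressed cannot be read from them.

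NF-kB subunits and inhibitors were higher in the main. Of 15 genes 14 were above 0 and 1 (6.67%) 2-fold or more higher, with a median at 0.13 at 2 h, 0.021 at 6 h and 0.37 at 12 h, and at 0.24 against the strictest array. RELB, the subunit of the slower NF-kB pathway, was at 0.37 at 2 h, -0.22 at 6 h and 1.20 at 12 h. TNIP2, an inhibitor, was at 0.76 (SD 0.078 over 3 probe sets), the inhibitor NFKBIE at 0.67, the subunit NFKB1 at 0.52 and the inhibitor NFKBIA at 0.34. An NF-kB site occurred in 5 of 13 promoters (38.5%) of this list, against 1.56% of all promoters. The 5 were those of NFKB1 and NFKBIA, and of TNFAIP3 at 0.066, NFKBIZ at 0.053 and REL at -0.17. None of these genes was past 2-fold, so the share describes the list and not its higher members.

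Of 22 inflammatory chemokines, cytokines and adhesion molecules 4 (18.2%) were 2-fold or more higher and 0 lower, while the median was 0.091. CXCL8, which attracts neutrophils, was at -0.24 at 2 h, 0.34 at 6 h and 2.56 at 12 h. ICAM1, which binds leukocyte integrins, was at 0.40 at 2 h, 0.053 at 6 h and 1.31 at 12 h, and the IL6-type cytokines IL11 and LIF were at 1.14 and 0.089 at 2 h, 0.22 at 6 h and 1.01 at 12 h. The probe sets of IL11 had an SD of 1.53. CXCL16, outside the list, was at 1.19, and CCL20, a member, at 0.59.

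Death receptor genes went both ways. TNFSF10, the death ligand TRAIL, was at 0.0027 at 2 h, 0.44 at 6 h and -1.57 at 12 h with an SD of 0.082 over 3 probe sets, and TNFRSF12A, the receptor of TWEAK, at 0.39 at 2 h, -0.038 at 6 h and 1.42 at 12 h. Of 16 genes in this list these were the 2 past 2-fold, 9 were above 0 and 7 below. In the BCL2 family the death-promoting PMAIP1 was at -0.46 at 2 h, -0.43 at 6 h and 1.12 at 12 h, below the 0 h array at 2 and 6 h, and was the 1 of 15 genes past 2-fold. MCL1 was at 0.20 and BCL2L1 at 0.11, both with probe sets of both signs. The caspases CASP6 at -1.13 and CASP1 at -1.07 were grouped after their values were seen.

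Genes of the integrated stress response, which ATF4 switches on when amino acids are short or translation is blocked, were higher. Of 24 genes 19 were above 0, 2 (8.33%) 2-fold or more higher and 11 at or past 1.5-fold higher. The median was 0.23 at 2 h, -0.15 at 6 h and 0.54 at 12 h, and 0.20 against the strictest array. DDIT4, an inhibitor of mTORC1, was at -0.27 at 2 h, 0.47 at 6 h and 1.13 at 12 h, STC2, a secreted glycoprotein, at 0.20 at 2 h, -0.13 at 6 h and 1.08 at 12 h and DDIT3, the factor CHOP, at 0.22 at 2 h, 0.30 at 6 h and 0.99 at 12 h. TRIB3, which damps ATF4, dipped at 6 h, at 0.48 at 2 h, -0.57 at 6 h and 0.92 at 12 h. MTHFD2, a mitochondrial folate enzyme, followed the same course at 0.24 at 2 h, -0.40 at 6 h and 0.69 at 12 h. ATF4 was at 0.37 and ASNS, which makes asparagine, at 0.21 at 2 h, -0.43 at 6 h and 0.34 at 12 h.

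The 3 enzymes of serine synthesis differed. PHGDH, its first enzyme, was at 0.45 at 2 h, 0.29 at 6 h and 0.73 at 12 h and PSAT1, the second, at 0.34, but PSPH, the third, was at -0.026 at 2 h, -0.28 at 6 h and -0.62 at 12 h, with an SD of 0.062 over 3 probe sets. SHMT2, which passes the serine carbon to folate, was at 0.87, and GLDC, which breaks down glycine, at -0.93. By contrast with the ATF4 genes, chaperones of the endoplasmic reticulum had a median of 0.027, with no member past 2-fold. Of 20 of them 10 were above 0, with HSPA5 at 0.11, ERN1, a sensor of unfolded protein, at 0.87 and CALR at -0.71. Cytosolic chaperones also had 0 of 14 genes past 2-fold.

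The tRNA synthetases, which charge tRNAs with amino acids, had 13 of 15 genes above 0 and 1 (6.67%) 2-fold or more higher. Their median was 0.17 at 2 h, -0.17 at 6 h and 0.34 at 12 h, and 0.20 against the strictest array. SARS1, for serine, was at 0.54 at 2 h, -0.052 at 6 h and 1.15 at 12 h, CARS1, for cysteine, at 0.37 at 2 h, -0.30 at 6 h and 0.81 at 12 h and WARS1, for tryptophan, at 0.33 at 2 h, -0.16 at 6 h and 0.74 at 12 h. All 3 were higher at 2 h, below 0 at 6 h and highest at 12 h. TGATGNAA occurred in 5 of 12 promoters (41.7%) of the tRNA synthetases and in 4 of 20 (20%) of the stress response list, against 3.67% of all promoters. The 5 genes ran from 0.20 for NARS1 to 0.81 for CARS1, and the 4 from -0.084 for FGF21 to 0.64 for CHAC1. The members past 2-fold, SARS1, DDIT4 and STC2, held no match. In the wider family of 30 synthetase genes, mitochondrial ones included, the median was 0.07.

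Of 28 amino acid transporters 2 (7.14%) were 2-fold or more higher and 20 above 0, with a median of 0.19. SLC6A14, which takes up neutral and cationic amino acids, was at 0.024 at 2 h, -0.30 at 6 h and 3.29 at 12 h and SLC7A10 at 0.17 at 2 h, 0.31 at 6 h and 2.36 at 12 h, each on 1 probe set. SLC1A5, the glutamine transporter, was at 0.64 at 2 h, -0.15 at 6 h and 0.91 at 12 h and SLC38A2 at -0.0075 at 2 h, 0.58 at 6 h and 0.81 at 12 h. SLC7A5 and its partner SLC3A2 were at 0.15 and 0.37.

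Cholesterol synthesis was the lipid pathway with the widest shift. Of 19 genes 17 were below 0, 2 (10.5%) were 2-fold or more lower and 7 at or past 1.5-fold lower, with a median at -0.034 at 2 h, 0.07 at 6 h, -0.55 at 12 h and, relative to the spike-in RNAs, -0.20. HMGCS1, an early enzyme, was at -0.096 at 2 h, -0.36 at 6 h and -1.36 at 12 h, and TM7SF2, a late one, at 0.21 at 2 h, 0.16 at 6 h and -1.01 at 12 h. Of the other enzymes of the pathway ACAT2 was at -0.92, FDPS at -0.81, SQLE at -0.83, MSMO1 at -0.70 and NSDHL at -0.80. INSIG1, which holds the SREBP factors in place, was at 0, and INSIG2, its relative on the hypoxia list, at 0.09 at 2 h, 0.49 at 6 h and 0.86 at 12 h. The factors SREBF1 and SREBF2 were at -0.19 and 0.081. The sterol element TCACNCCAC occurred in 1 of 17 promoters (5.88%) of this list, that of SREBF2, and in 1.15% of all.

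Fatty acid synthesis had 2 of 17 genes 2-fold or more lower and a median of -0.19, which becomes 0.17 relative to the spike-in RNAs. SCD, which desaturates stearate, was at -0.17 at 2 h, -0.33 at 6 h and -1.44 at 12 h and PNPLA3, a lipid droplet enzyme, at -0.032 at 2 h, -0.41 at 6 h and -1.14 at 12 h. ACSS2, which activates acetate, was high at 6 h and low at 12 h, at 0.16 at 2 h, 0.59 at 6 h and -0.73 at 12 h. FASN was at -0.07. Of 21 genes of PPARA and fatty acid oxidation only EHHADH, a peroxisomal enzyme, passed 2-fold, at -0.31 at 2 h, -0.13 at 6 h and -1.35 at 12 h, while CPT1A was at -0.094. CD36, a fatty acid receptor, at -1.05 and ACOX2, which shortens bile acid side chains, at -1.04 were outside the lists and grouped after their values were seen.

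In bile acid synthesis CYP8B1, which sets the share of cholic acid, was at -0.27 at 2 h, -0.33 at 6 h and -1.79 at 12 h and AKR1D1, a reductase of the same route, at 0.046 at 2 h, 0.24 at 6 h and -1.26 at 12 h, whereas CYP7A1, the first enzyme, was at -0.66 at 2 h, 1.38 at 6 h and -0.055 at 12 h and so near 0 at 12 h alone. NR0B2, the repressor SHP, was at 0.91. Of 20 genes of this list CYP8B1 and AKR1D1 were the 2 past 2-fold. Among 20 apolipoproteins and assembly factors APOB alone passed 2-fold, at -0.64 at 2 h, -1.60 at 6 h and -1.08 at 12 h, with a lower value at 6 h than at 12 h and an SD of 1.40 over 2 probe sets. APOC3 was at -0.63 and APOA1 at -0.10.

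Glucose uptake and glycolysis were lower. Of 22 genes 18 were below 0, 2 (9.09%) were 2-fold or more lower and 0 higher. The median was 0.017 at 2 h, -0.20 at 6 h and -0.46 at 12 h, with -0.19 against the strictest array and -0.11 relative to the spike-in RNAs. SLC2A3, the high-affinity glucose transporter, was at -0.37 at 2 h, -1.23 at 6 h and -2.75 at 12 h, with 3 probe sets between -3.12 and -2.42. The liver transporter SLC2A2 was at 0.074 at 2 h, -0.42 at 6 h and -0.92 at 12 h, and SLC2A1 at -0.04. ALDOC, an aldolase, was at 0.052 at 2 h, -0.054 at 6 h and -1.27 at 12 h, PGK1 at -0.24 at 2 h, -0.39 at 6 h and -0.75 at 12 h and TPI1 at -0.11 at 2 h, -0.35 at 6 h and -0.72 at 12 h, with an SD of 0.023 over 3 probe sets. Values of SLC2A3, PGK1 and TPI1 were lower at each later array, while ALDOC was low at 12 h only. PFKFB3, which makes the activator of phosphofructokinase, was at 0.43, against this direction.

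Targets of the hypoxia factor HIF outside glycolysis were split. Of 20 genes 14 were below 0, 1 was 2-fold or more higher and 1 lower, and the median of -0.31 became 0.043 relative to the spike-in RNAs, 0.092 against the strictest array and -0.071 without multi-match probe sets. LOX, which crosslinks collagen, was at 0.083 at 2 h, -1.25 at 6 h and -2.01 at 12 h, although 1 of its 3 probe sets was at -0.099. PDK1, which closes the entry to the citric acid cycle, was at 0.07 at 2 h, -0.70 at 6 h and -0.92 at 12 h, while VEGFA, given above, and MXI1, a MYC antagonist, at 0.16 at 2 h, -0.23 at 6 h and 0.94 at 12 h were higher. ARRDC3 and ARRDC4, arrestin-like proteins that respond to glucose, were at 0.043 at 2 h, -0.51 at 6 h and -1.95 at 12 h and -0.025 at 2 h, -1.65 at 6 h and -1.49 at 12 h, and TXNIP, of the same family, at 0.0013 at 2 h, -0.61 at 6 h and -0.71 at 12 h. Of the 18 gluconeogenesis and fasting genes these arrestins were the 2 past 2-fold.

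Enzymes that break down amino acids gave some of the lowest single genes without a shift of their list. ALDH8A1, a dehydrogenase of tryptophan breakdown, was at -0.41 at 2 h, 0.30 at 6 h and -3.23 at 12 h on 1 probe set. FAH, the last enzyme of tyrosine breakdown, was at 0.094 at 2 h, -0.017 at 6 h and -1.42 at 12 h, whereas NAGS, which makes the activator of the urea cycle, was at 0.23 at 2 h, 0.21 at 6 h and 1.37 at 12 h. The list of 23 had a median of -0.12, which becomes 0.23 relative to the spike-in RNAs, with CPS1, the first step of the urea cycle, at -0.47. BHMT, which returns homocysteine to methionine, was at -0.22 at 2 h, 0.22 at 6 h and -1.97 at 12 h, MAT1A, which makes the methyl donor in liver, at -0.85 and GNMT, which spends it, at -0.84. CBS, which removes homocysteine, was at 0.77, with probe sets of both signs.

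More enzymes of this kind were outside the lists and grouped after their values were seen. These were ALDH7A1 at -1.13 and HYKK at -1.13, both of lysine breakdown, ALDH6A1, of valine breakdown, at -1.01, GCAT, of threonine breakdown, at -1.03, and DDC, which decarboxylates aromatic amino acids, at -1.18. ARG2, the mitochondrial arginase, was at 0.27 at 2 h, -0.0041 at 6 h and 1.36 at 12 h, in the other direction. In the family of 26 aldehyde and alcohol dehydrogenases 3 (11.5%) were 2-fold or more lower and 1 higher, with a median of -0.27 that becomes 0.086 relative to the spike-in RNAs.

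Liver-specific functions showed single genes in both directions. Of 28 drug-metabolising enzymes 4 (14.3%) were 2-fold or more lower: CYP4F2, an omega-hydroxylase, at -1.31, the glutathione transferases GSTA4 at -1.06 and GSTA1 at -1.05, and the sulfotransferase SULT1C2 at -1.05. The 2 probe sets of GSTA1 had an SD of 2.55 and opposite signs. UGT2B4, which conjugates bile acids, was the 1 member 2-fold or more higher, at 0.23 at 2 h, 0.40 at 6 h and 2.36 at 12 h. DIO1, which activates thyroid hormone, was at 0.017 at 2 h, 0.29 at 6 h and -1.89 at 12 h, HAMP, the iron hormone hepcidin, at 0.41 at 2 h, -1.16 at 6 h and -1.13 at 12 h and INHBE, an activin chain of liver, at 0.33 at 2 h, -0.40 at 6 h and 1.24 at 12 h. HAMP was as low at 6 h as at 12 h. HMOX1, which breaks down haem, was at 0.027 at 2 h, -0.20 at 6 h and -1.47 at 12 h and was the 1 of 19 NRF2 genes past 2-fold, with NQO1 at -0.094.

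Lists of secreted plasma proteins differed in the share past 2-fold, beside 0.946% of all genes 2-fold or more higher and 0.986% lower. Among 21 acute-phase and IL6 signalling genes 3 (14.3%) were 2-fold or more higher: LCN2, which binds bacterial iron carriers, at 0.33 at 2 h, 0.25 at 6 h and 1.21 at 12 h, ITIH3 at 1.03 and SERPINA3 at 1.02. The list as a whole was not shifted, with a median of 0.025, 11 genes above 0 and 10 below. CP, ceruloplasmin, was at -0.97, CRP at 0.099 and SOCS3 at 0.20. PLAU, the protease urokinase, was at -0.16 at 2 h, 0.23 at 6 h and 1.51 at 12 h and was the 1 of 26 coagulation and fibrinolysis genes past 2-fold. MBL2 at -0.12 at 2 h, -1.05 at 6 h and -1.11 at 12 h was the 1 of 21 complement genes. Of 15 plasma carriers 0 passed 2-fold and 13 were above 0, with ALB at 0.053, TTR at 0.46 and AFP at 0.10. Among 18 factors of the hepatocyte lineage 0 passed 2-fold, with CEBPB at 0.25 at 2 h, -0.43 at 6 h and 0.72 at 12 h, CEBPA at 0.34 at 2 h, -0.72 at 6 h and -0.66 at 12 h, FOXA1 at -0.82 and FOXA3 at 0.73. The CEBP pair were thus apart at 12 h.

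Metallothioneins, which bind zinc and copper, were above the 0 h array at 2 and 6 h and far below it at 12 h, in readings that share sequence. Of 11 genes, their regulator MTF1 included, 7 (63.6%) were 2-fold or more lower at 12 h, and the median was 1.38 at 2 h, 1.08 at 6 h and -2.31 at 12 h, but 0.17 over the 5 genes left without multi-match probe sets. MT1X was at 1.64 at 2 h, 1.13 at 6 h and -3.07 at 12 h and MT2A at 1.5 at 2 h, 1.31 at 6 h and -2.56 at 12 h. MT1E was at -3.05, MT1F at -2.31 and MT1G at -1.48 at 12 h, the last with an SD of 1.93 over 2 probe sets. MT1M, whose probe set matches 1 transcript, was at 2.03 at 2 h, 1.33 at 6 h and -0.48 at 12 h. MTF1 was at 0. SLC30A10, an exporter of metal ions, was at -0.11 at 2 h, -0.69 at 6 h and -1.04 at 12 h and SLC39A11 at 1.02, and SLC30A1, a zinc exporter induced through MTF1, at 0.23 at 2 h, -0.83 at 6 h and -0.28 at 12 h. The promoter of MT2A is shown because it carries many copies of the metal response element, TGCACNC or TGCGCNC, in capitals, to which MTF1 binds, and lies at chr16:56608334-56608633 on the plus strand.
MT2A: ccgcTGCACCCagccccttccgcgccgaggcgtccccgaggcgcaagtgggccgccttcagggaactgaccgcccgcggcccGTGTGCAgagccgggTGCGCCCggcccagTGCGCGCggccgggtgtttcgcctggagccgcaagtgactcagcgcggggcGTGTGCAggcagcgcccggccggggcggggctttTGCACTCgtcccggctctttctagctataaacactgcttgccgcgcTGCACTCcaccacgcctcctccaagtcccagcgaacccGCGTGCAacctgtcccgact

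The element occurred 8 times in it and in 4 of 5 metallothionein list promoters (80%), against 29.3% of all promoters and 34.9% of those of genes read here. Of the 4 genes MT2A, MT1X and MT1H were lower at 12 h, and MT4 was at 0.24. These short letters were also in 9 of 12 promoters (75%) of the nucleotide list and 13 of 21 (61.9%) of the origin and helicase list. The share is thus not particular to metallothioneins.

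**Figure D4:**
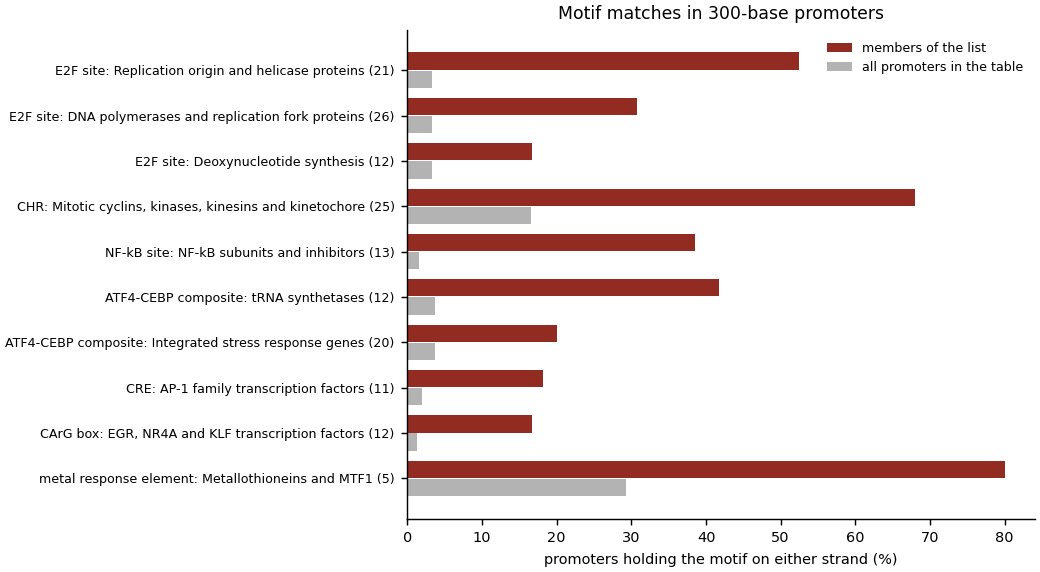
Share of 300-base promoters (percent) that hold a motif on either strand, for the members of 10 lists in red, with the number of promoters in brackets, and for all 27305 promoters of the table in grey. The E2F site is in 52.4% of origin and helicase promoters against 3.33% of all, and the shares describe letters and no measured binding.

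Among regulators outside the lists, grouped after their values were seen, BCL6, a repressor of inflammatory genes, was at 0.069 at 2 h, 0.67 at 6 h and 1.78 at 12 h, with 3 probe sets between 1.67 and 1.83. GFI1, another repressor, was at -0.11 at 2 h, 0.77 at 6 h and 1.41 at 12 h, CREBRF at 1.41, the histone demethylase KDM7A at 1.43, and PNRC1 at 0.098 at 2 h, 0.71 at 6 h and 1.29 at 12 h. The 5 probe sets of CREBRF had an SD of 0.93. EDN1, the peptide endothelin, was at -0.16 at 2 h, 0.043 at 6 h and 2.29 at 12 h, but its 3 probe sets had an SD of 1.85 and were not all of 1 sign. METRNL, a secreted protein, was at 0.78 at 2 h, 0.0002 at 6 h and 1.51 at 12 h, SPINK1, a trypsin inhibitor, at 0.27 at 2 h, 0.53 at 6 h and 1.62 at 12 h and MERTK, a receptor through which dying cells are engulfed, at 1.38. Of signalling enzymes MAP3K8, a kinase between NF-kB and ERK, was at 1.02, the small GTPases RASD1 and RRAD at 1.62 and 1.20, and MAP2K6, which activates p38, at -0.017 at 2 h, -0.19 at 6 h and -1.24 at 12 h. GPX3, a secreted peroxidase, was at 0.20 at 2 h, -0.27 at 6 h and -1.56 at 12 h, CHST9, a sulfotransferase, at 0.035 at 2 h, -0.076 at 6 h and -1.82 at 12 h and DAB2, an endocytic adaptor, at -0.012 at 2 h, -0.23 at 6 h and -1.95 at 12 h.

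Some of the highest and lowest genes read by several probe sets of 1 sign belong to none of these groups. Among the higher were the long noncoding RNA DLGAP1-AS2 at 0.22 at 2 h, -0.26 at 6 h and 1.96 at 12 h, CLMN at 1.59, RSL1D1, a nucleolar protein, at 1.54, GAREM1, an adaptor of EGF receptor signalling, at 1.38, the zinc finger gene ZNF431 at -0.21 at 2 h, 0.93 at 6 h and 1.37 at 12 h, PALLD, which binds actin, at 1.37, the collagen chain COL2A1 at 1.35 and KIAA1549 at 1.35. The SDs of these genes over their probe sets ran from 0.327 for DLGAP1-AS2 to 0.88 for PALLD. SCN2A, a sodium channel subunit, at 1.70, PRRG4 at 1.62 and KLHDC7B at 1.58 had probe sets far apart, with SDs of 2.07, 1.87 and 1.41. Among the lower, MPZL2, a cell adhesion protein, was at -0.31 at 2 h, -0.52 at 6 h and -1.63 at 12 h, with an SD of 0.086 over 3 probe sets. FYB2 was at -1.44 and the tubulin TUBB1 at -1.77, with SDs of 0.999 and 1.32 over 2 probe sets each. MORF4L2, of chromatin complexes, was at -0.20 at 2 h, -1.35 at 6 h and -1.65 at 12 h, IFT70B, of cilia, at -0.11 at 2 h, -1.66 at 6 h and -1.61 at 12 h, the ribosomal RNA precursor RNA45SN5 at -0.42 at 2 h, -1.51 at 6 h and -1.48 at 12 h and IDNK, a gluconate kinase, at -0.031 at 2 h, -1.02 at 6 h and -1.44 at 12 h, all 4 low from 6 h. The 3 probe sets of MORF4L2 had an SD of 0.94, with 1 of them at -0.104 at 12 h.

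Over all genes 0.946% were 2-fold or more higher and 0.986% lower, so a short list often has no member past 2-fold. Several pathways had no such member at 12 h. These included ribosome biogenesis (22 genes, median 0.11), translation factors (18 genes, median 0.18), integrins and focal adhesion (21 genes, median 0.032), the clock (16 genes, median -0.014), p53 targets (18 genes, median 0.091), nuclear receptors (24 genes, median 0.051) and the citric acid cycle (18 genes, median -0.21, which becomes 0.14 relative to the spike-in RNAs). Of 20 interferon-stimulated genes IRF9, a subunit of the interferon-activated factor, was the 1 past 2-fold, at 0.27 at 2 h, 0.49 at 6 h and 1.13 at 12 h. Among 81 ribosomal protein genes 0 passed 2-fold, as among 44 proteasome genes. Markers of other cell types were also near 0: 0 of 13 immune, 0 of 12 fibroblast and stellate and 0 of 12 endothelial markers passed 2-fold, with medians of -0.053, 0.067 and -0.077. The centred values hold no level, so neither the absence of these markers nor the presence of liver markers can be read from them.

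Agreement between probe sets gives the one measure of error these arrays hold, within the array and not between cultures. The median SD between the probe sets of a gene was 0.209. Of the genes 2-fold or more higher, 104 rest on 1 probe set and 83 on several. All probe sets had 1 sign in 73 of the 83, and all were past 2-fold in 23. Of the genes 2-fold or more lower, 105 rest on 1 probe set and 90 on several, with 1 sign in 82 and all past 2-fold in 35. Only multi-match probe sets read 36 of the higher and 34 of the lower genes, among them EGR1, CXCL8, MCM2, RRM1, SLC2A3, LOX and SCD. Against the strictest array, 67 of the 187 higher and 84 of the 195 lower genes were still past 2-fold.

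**Figure D5:**
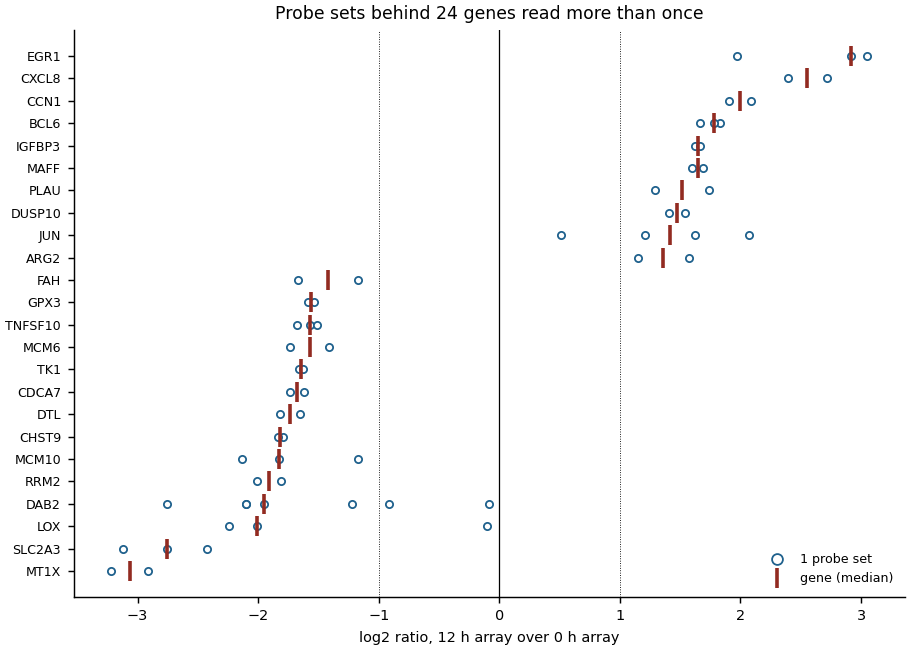
Log2 ratio of the 12 h over the 0 h array for each probe set (circles) and the gene's median (bars) of 24 genes read by 2 or more probe sets. Circles lie close together for IGFBP3, MAFF, TK1 and CHST9 and apart for JUN, LOX and DAB2, and dotted lines mark 2-fold.

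Protein-coding genes made up 177 of the 187 higher and 176 of the 195 lower genes, and long noncoding RNAs 7 and 14. On none of the 73 lists were 144 of the higher and 134 of the lower genes, so the greater share of the genes past 2-fold is not described by a function fixed here.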

How the data were processed

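The authors deposited 1 table of log2 values for 54675 probe sets on 4 arrays, and RMA is the tool the submitters' processing notes name, without a version. RMA corrects background, makes the distributions of the arrays equal and summarises the probes of a set. As deposited, the log2 values were centred: all 4 arrays of a probe set had a median of 0 within 1e-06, so no expression level is left and dim probe sets could not be filtered. For the centring, software was not given in the sources used here. That the base is 2 and that a higher value means more transcript were taken from RMA and are not stated.

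Gene symbols are those of the platform annotation, brought to RefSeq names by gene identifier. Of the probe sets 41091 had 1 symbol and were used, 1801 had several, 11721 had none and 62 were controls. Ratios per gene were medians of probe sets, computed with Python 3.11.15, pandas 2.3.3 and NumPy 2.4.6, and drawn with matplotlib 3.10.9. The computation was checked on simulated data. No p-value is given, because each time has 1 array, and this number limits the precision of every value.

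The members and the lists were chosen with earlier results of these data known. The 25 highest and the 25 lowest genes past 2-fold with several probe sets of 1 sign are all named. List members at or past 1.5-fold, the first genes of each list and genes grouped after their values were seen are named in part, not in full. Some members nearer 0 were also named for their role after their values were seen. List entries that could not be read (1379 of 1511 could) are not analysed here. Of the genes 15381 had a promoter in the RefSeq table, as had 303 of the 382 past 2-fold. Alternatives were other centring, other probe sets, other summaries, other references and other thresholds.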

Additional observations from a re-analysis of the deposited data

How the results depend on the processing

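No paired analysis was possible because each time has 1 array. Against 187 genes 2-fold or more higher and 195 lower, centring on the spike-in RNAs gave 694 and 76. Taking for each gene the widest-ranging probe set gave 513 and 508, and 2 or more probe sets all past 2-fold 23 and 35. The strictest of the other 3 arrays gave 70 and 85. Of these, 67 and 84 were among the 187 and 195 genes. The rest were not past 2-fold in that direction over the 0 h array. At 1.5-fold the counts were 881 and 731, and at 3-fold 33 and 38. Centring on the array median, the mean over probe sets, leaving out multi-match probe sets and the mean of the 0, 2 and 6 h arrays as reference kept both counts within 1.5 times. Signs turned as follows. Centred on the spike-in RNAs the hypoxia list was at 0.043 and the mitotic list at 0.054. Without multi-match probe sets the metallothionein list was at 0.17, C11orf96 at -0.027, DNASE1L3 at 0.31 and MALAT1 at 0.60. Against the strictest array, the highest or lowest of the other 3 on the side of the difference, the hypoxia list was at 0.092, ACSL4 at 0.22, APOB at 0.51, ARRDC4 at 0.16, DHX9 at 0.068, ELAC1 at 0.031, ENO1-AS1 at 0.29, FOLR1 at -0.20, GPCPD1 at 0.014, HAMP at 0.033, IFT70B at 0.048, LOC101928728 at 0.13, MALAT1 at 0.69, PRORSD1P at 0.096, RNA45SN5 at 0.039 and SLC20A1 at 0.50. With the widest-ranging probe set per gene no shifted list turned sign. Some lay further from 0, among them the AP-1 list at 0.91 and the EGR, NR4A and KLF list at 0.44. The ERK feedback list was then at 0.64 and the hypoxia list at -0.49. Depth has no meaning here, and signal over background is not held by centred values.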
